A study of Arabidopsis thaliana with 11 samples.

Results

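Class III peroxidases are a plant family of secreted haem enzymes, and 59 of its loci were followed among the 33602 genes measured in light-grown Arabidopsis thaliana seedlings. The 59 were chosen by locus as family members. All 59 matched a gene of TAIR10.1, and 14 further loci that complete the family of 73 are described once, near the end. AT1G05240 and AT1G05250 have the same coding sequence and share reads, so the list gives 58 observations, of which 49 passed the filter on low reads. The measurements came from whole seedlings, 4 days old, in 11 libraries of poly-A RNA. Seedlings of the line iSPCH carry ESTpro:SPCH1-4A-YFP, a YFP-tagged variant of the stomatal regulator SPEECHLESS (SPCH) that estradiol switches on. The other line is Columbia wild type (WT), which has no construct. Seedlings of each line were taken without treatment (0 h) and after 10 µM estradiol for 6 h or 8 h. Each of these 6 groups has 2 libraries, called A and B in an arbitrary order and given in that order below, except untreated WT, which has 1.

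These enzymes use hydrogen peroxide to oxidise phenolic compounds in the cell wall, which cross-links wall polymers and polymerises lignin. They can also make reactive oxygen, which loosens growing walls and takes part in the oxidative burst of defence. In seedlings, different members are known from growing root hairs, from the Casparian strip of the endodermis, from lignifying vessels and fibres, and from cells that respond to microbes or wounding. The members are described below in lists of these roles. The members and all lists were chosen with earlier results of these data known, so a direction shared within a list is a description only.

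The genes share a common build. The coding sequences are 933 to 1119 bases long and encode 310 to 372 residues, and 39 of the 59 genes have 4 coding exons. Identity between coding sequences ran from 56.9% to 100% over the 1711 pairs, with a median of 63.0%, and 10 pairs reached 80%. Tandem neighbours, less than 10000 bases apart, include 20 of the 59. The first 60 coding bases are shown for 2 such pairs because sharing of reads limits what can be said of each gene. Capitals mark the positions that differ within a pair, of which the first pair has 0 and the second 7.
AT1G05240: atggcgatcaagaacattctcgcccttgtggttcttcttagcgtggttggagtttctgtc
AT1G05250: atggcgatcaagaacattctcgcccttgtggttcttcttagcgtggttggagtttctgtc
AT4G37520: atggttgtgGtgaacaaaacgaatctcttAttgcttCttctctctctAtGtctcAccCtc
AT4G37530: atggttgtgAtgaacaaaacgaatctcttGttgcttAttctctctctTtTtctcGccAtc
The pair on chromosome 1 had almost the same value in every library, with 301 and 349 normalised read counts in WT at 8 h for either locus. AT4G37520 and AT4G37530 are 92.4% identical, with a stretch of 202 bases at 96.04%, so their counts may partly be shared too. AT1G30870, AT4G26010, PER64, AT5G51890 and RHS19, all called below, are among 9 members that overlap another gene, and without a stated strand the reads of the 2 genes cannot be told apart where they overlap.

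Short sequences before the gene starts were compared with those of 27443 protein-coding genes, in windows of 250 bases. The W-box core, TTGACC or TTGACT on either strand, is the site of WRKY factors of defence, and 18 of the 59 windows hold it (30.5%, against 28.4% of all genes). In the defence list below 4 of 7 windows hold it, and in the root hair list 4 of 10. The root hair element, called RHE, is known from promoters of root hair genes, and was found on either strand in 3 of 59 windows (5.08%, against 0.754% of all genes). In the root hair list 2 of 10 windows hold the RHE, and in the defence list 0 of 7. The remaining match is before AT2G35380, which is in no role list. The E-box CANNTG, bound by bHLH proteins such as SPCH, was in 59.3% of windows against 55.3% of all, and its form CACGTG in 0 of 59 against 6.49%. Windows of 4 genes are shown, with the RHE in capitals in the first pair and each W-box core in capitals in the second. They come from RefSeq TAIR10.1 and read towards the gene: RHS18 (AT5G22410) at chr5:7426060-7426309 on the plus strand, AT3G01190 at chr3:68666-68915, PRX71 (AT5G64120) at chr5:25661008-25661257 and PRX72 (AT5G66390) at chr5:26517600-26517849 on the minus strand. Each pair was chosen because its members, with the same motif, took different courses in the values below.
RHS18: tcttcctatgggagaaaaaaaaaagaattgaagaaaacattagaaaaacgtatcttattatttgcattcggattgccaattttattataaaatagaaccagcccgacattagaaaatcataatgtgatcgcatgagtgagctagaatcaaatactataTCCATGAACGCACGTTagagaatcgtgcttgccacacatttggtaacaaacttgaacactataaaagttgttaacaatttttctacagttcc
AT3G01190: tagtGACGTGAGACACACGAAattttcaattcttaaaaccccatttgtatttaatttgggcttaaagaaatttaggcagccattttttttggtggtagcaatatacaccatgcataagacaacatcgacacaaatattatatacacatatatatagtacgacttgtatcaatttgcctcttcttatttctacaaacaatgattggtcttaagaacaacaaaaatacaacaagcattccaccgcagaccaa
PRX71: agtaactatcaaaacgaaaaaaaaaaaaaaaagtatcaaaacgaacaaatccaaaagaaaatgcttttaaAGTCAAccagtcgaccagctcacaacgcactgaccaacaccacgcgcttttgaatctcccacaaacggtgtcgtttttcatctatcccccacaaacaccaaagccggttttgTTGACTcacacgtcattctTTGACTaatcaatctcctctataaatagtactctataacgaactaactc
PRX72: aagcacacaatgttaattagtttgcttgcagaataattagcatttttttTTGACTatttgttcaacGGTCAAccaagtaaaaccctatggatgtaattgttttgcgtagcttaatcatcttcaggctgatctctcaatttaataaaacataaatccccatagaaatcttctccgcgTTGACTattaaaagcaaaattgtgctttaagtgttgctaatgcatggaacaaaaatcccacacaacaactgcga
A match is a string of letters only, and binding was not measured.

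The libraries held 15.55M to 32.81M reads assigned to genes, with iSPCH 6 h B the shallowest. SPCH itself (AT5G53210) had 169.8 and 232 at 0 h, 37220 and 37520 at 6 h and 41640 and 39760 at 8 h in iSPCH, against 178 at 0 h, 103 and 129.8 at 6 h and 99.5 and 141 at 8 h in WT, so the libraries labelled as induced had by far the most SPCH reads. Values are normalised read counts, that is reads divided by the authors' size factors, and differences are log2 fold changes of that value plus 1, with the standard error (SE). Groups have n = 2, and WT 0 h has n = 1. A gene is called at a Benjamini-Hochberg false discovery rate (FDR) of 0.05 over the 19667 genes tested. The labels do not say that paired libraries are separate plantings, so the p-values reflect no more than the scatter among these libraries, which may be technical. The 58 observations summed to 0.288% to 0.407% of all normalised counts in a library.

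After 8 h of estradiol, 6 of 8 tested root hair peroxidases were lower in iSPCH than in WT, and 5 of 6 tested peroxidases of defence and the oxidative burst were higher. The 5 include AT1G14550, which passed the filter on low reads only through iSPCH at 8 h, so its call is no support. In whole seedlings, fewer cells of a type and less RNA per cell cannot be told apart. Of 49 observations tested, 7 were higher and 16 lower (46.9% called, against 10.7% of all genes tested, with 4.75% higher and 5.98% lower). Changes of more than 2-fold were called for 4 of the higher and 6 of the lower ones. The 6 lower ones are all in the root hair list and the 4 higher ones, AT1G14550 among them, all in the defence list. Because the lists were drawn up with earlier results of these data known, this grouping is no independent support. After 6 h 1 was higher and 3 lower (8.2%, against 4.73% of all genes, with 1.16% higher and 3.57% lower). Before estradiol 0 were called with limma, edgeR or DESeq2, with 2 at an unadjusted p under 0.05 (0.0915% of all genes called with limma, 0.0458% higher and 0.0458% lower). The 23 calls at 8 h became 14 without any one of the 4 libraries compared, and the 4 at 6 h became 10 with iSPCH 6 h A left out and 2 with WT 6 h B left out. When only library size was used for scaling there were 9 higher and 12 lower at 8 h, with the median of all genes at 0.09, against -0.03 with the authors' size factors. Lack of overlap between lines, given below for single genes, is common with pairs of libraries. At 8 h both iSPCH libraries lay below both WT libraries in 29.1% of all genes tested and above them in 21.6%. At 6 h the shares were 24.6% and 23.6%. In the family 23 of 49 lay below and 11 above at 8 h, and 24 below and 4 above at 6 h.

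**Figure D1:**
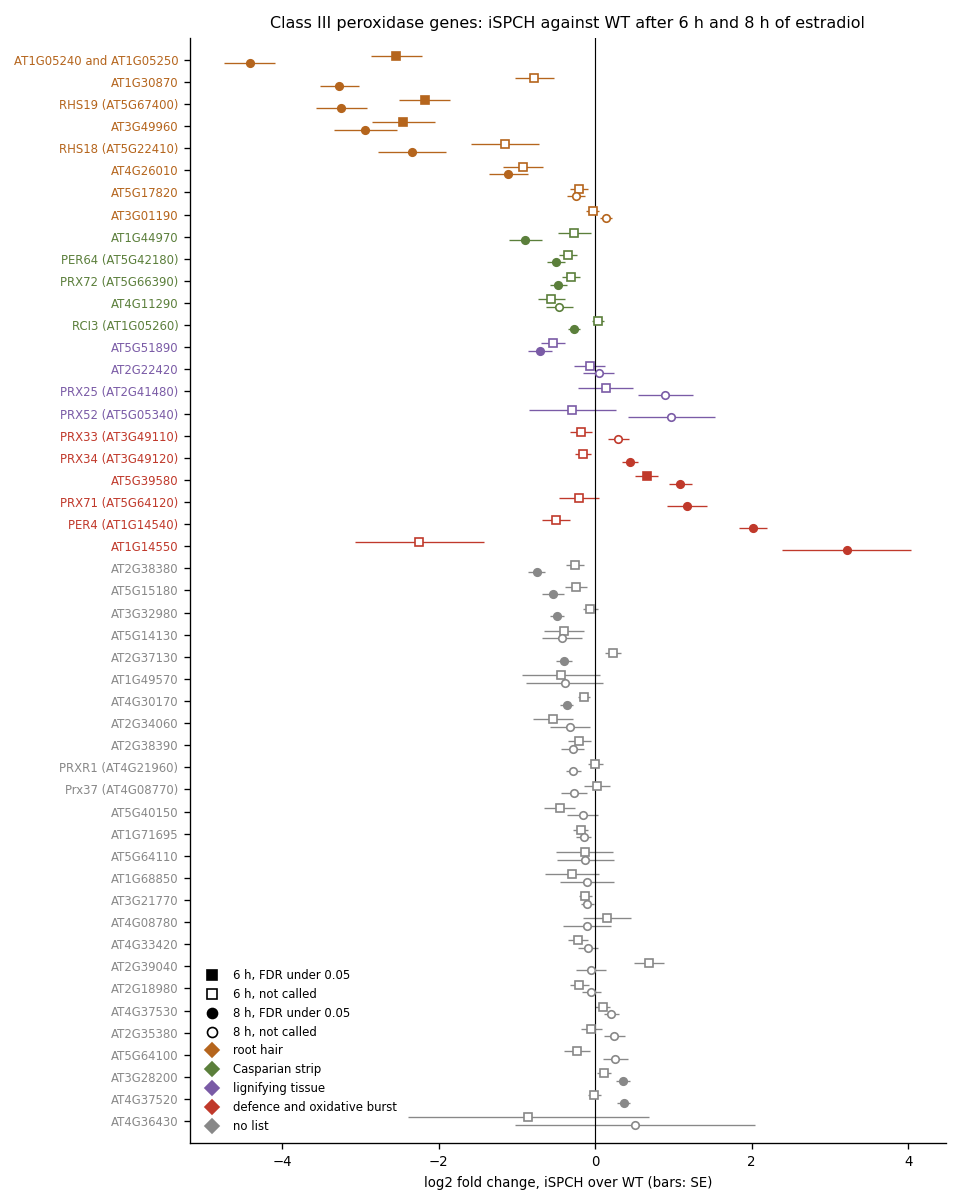
Log2 fold change of iSPCH over WT (horizontal axis, bars are SE) for the 49 peroxidase observations tested, at 6 h (squares) and 8 h (circles). Filled symbols passed an FDR of 0.05 and colours give the role lists. At 8 h, 6 of the 8 root hair members lie left of -1 and the other 2 near 0. The defence members lie right of 0 at 8 h, while at 6 h all of them but AT5G39580 lie left of 0. Most members without a list lie near 0.

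The root hair list has 9 observations, of which 8 were tested. At 8 h 6 were lower in iSPCH and 0 higher, with a median of -2.64 over the 8 tested, beside -0.03 over all genes. Summed over the list, where the 2 members not called hold most reads, the level was 4042 and 3903 in iSPCH, against 4539 and 5148 in WT. At 6 h 3 of the 8 were lower, 5 with iSPCH 6 h A left out and 2 with WT 6 h B left out. The transcript shared by AT1G05240 and AT1G05250 (chromosome 1, 1520278 to 1523023 for the first) codes for a peroxidase that promotes root hair growth. It had 874 and 1014 at 0 h, 130.0 and 63.0 at 6 h and 11.7 and 17.3 at 8 h in iSPCH, against 1338 at 0 h, 493 and 574 at 6 h and 301 and 349 at 8 h in WT. Its fold change was -2.54 ± 0.32 after 6 h (adjusted p = 0.00564) and -4.42 ± 0.32 after 8 h (adjusted p = 1.38e-04), which is 21.4-fold lower. The 6 h call was lost without WT 6 h B (adjusted p = 0.0512), and the 8 h call held in 21 of 21 alternatives. The iSPCH libraries lay below the WT libraries at each hour, by little at 0 h and by far at 8 h.

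RHS19 (AT5G67400; chromosome 5, 26894778 to 26896488), a root hair specific gene whose peroxidase also promotes root hair growth, followed a like course. It had 302 and 337 at 0 h, 37.0 and 14 at 6 h and 6.37 and 6.92 at 8 h in iSPCH, against 389.7 at 0 h, 101 and 115 at 6 h and 67.2 and 75.9 at 8 h in WT. Fold changes were -2.18 ± 0.33 after 6 h (adjusted p = 0.00301) and -3.24 ± 0.33 after 8 h (adjusted p = 4.92e-05). AT3G49960 (chromosome 3, 18524084 to 18525792), a peroxidase of root hair cells, was already near its lowest level at 6 h. It had 127 and 152 at 0 h, 6.30 and 2.80 at 6 h and 1.06 and 3.46 at 8 h in iSPCH, against 174 at 0 h, 28.4 and 27.2 at 6 h and 21.8 and 22.7 at 8 h in WT. Fold changes were -2.45 ± 0.41 after 6 h (adjusted p = 0.00318) and -2.94 ± 0.41 after 8 h (adjusted p = 2.41e-04). These are few reads, so the size at 8 h ranged from -3.50 to -1.93 over the alternatives, with the call kept in 20 of 20. In both genes every iSPCH library at 6 h and 8 h was below every WT library.

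AT1G30870 (chromosome 1, 10991478 to 10993083), another root hair peroxidase, had the smallest p of the family at 8 h and moved late. It had 507 and 535 at 0 h, 177 and 126 at 6 h and 14.9 and 28.8 at 8 h in iSPCH, against 646 at 0 h, 256 and 258 at 6 h and 202 and 217 at 8 h in WT. The fold change was -0.78 ± 0.25 after 6 h (adjusted p = 0.119) and -3.27 ± 0.25 after 8 h (adjusted p = 1.44e-05), and the line difference at 8 h minus that at 6 h was -2.49 ± 0.35 (adjusted p = 0.00682). RHS18 (AT5G22410), also root hair specific, had 66.8 and 67.1 at 0 h, 15.8 and 5.60 at 6 h and 2.12 and 4.61 at 8 h in iSPCH, against 82.4 at 0 h, 19.9 and 25.2 at 6 h and 20.1 and 20.4 at 8 h in WT. Its 8 h difference was -2.34 ± 0.43 (adjusted p = 0.00230), and its 6 h difference of -1.15 ± 0.43 did not pass (adjusted p = 0.163). In both genes the pairs of libraries did not overlap between lines at 6 h or 8 h.

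AT4G26010, another peroxidase that promotes root hair growth, had a smaller difference. It had 558 and 755 at 0 h, 236 and 162 at 6 h and 126 and 111 at 8 h in iSPCH, against 863 at 0 h, 386 and 361 at 6 h and 202 and 325 at 8 h in WT. The lines did not overlap at any hour. The difference of -1.11 ± 0.25 at 8 h (adjusted p = 0.0275) was lost in 5 of 21 alternatives, among them those without iSPCH 8 h A (adjusted p = 0.102), iSPCH 8 h B (adjusted p = 0.171) and WT 8 h B (adjusted p = 0.0886).

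The 2 members of the list with the most reads per kb were not called. AT5G17820 had 2773 and 3072 at 0 h, 1986 and 1648 at 6 h and 1734 and 1660 at 8 h in iSPCH, against 3394 at 0 h, 2297 and 1907 at 6 h and 1857 and 2170 at 8 h in WT. AT3G01190 had 2959 and 3038 at 0 h, 1832 and 1981 at 6 h and 2146 and 2071 at 8 h in iSPCH, against 3128 at 0 h, 2010 and 1893 at 6 h and 1869 and 1966 at 8 h in WT. At 8 h AT5G17820 stood at -0.24 ± 0.11 (adjusted p = 0.220) and AT3G01190 at 0.14 ± 0.08 (adjusted p = 0.321), and with library size alone AT3G01190 was called higher. Neither gene's libraries overlapped between lines at 8 h. Both are known from roots, and their levels per kb of coding sequence in iSPCH at 8 h, 1541 and 2183, were the 12th and 10th highest of the family. AT3G01190 and RHS18, the pair with an RHE in the windows above, thus differed in course. The last of the list, AT1G34510, had at most 11 reads in a library and was not tested.

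**Figure D2:**
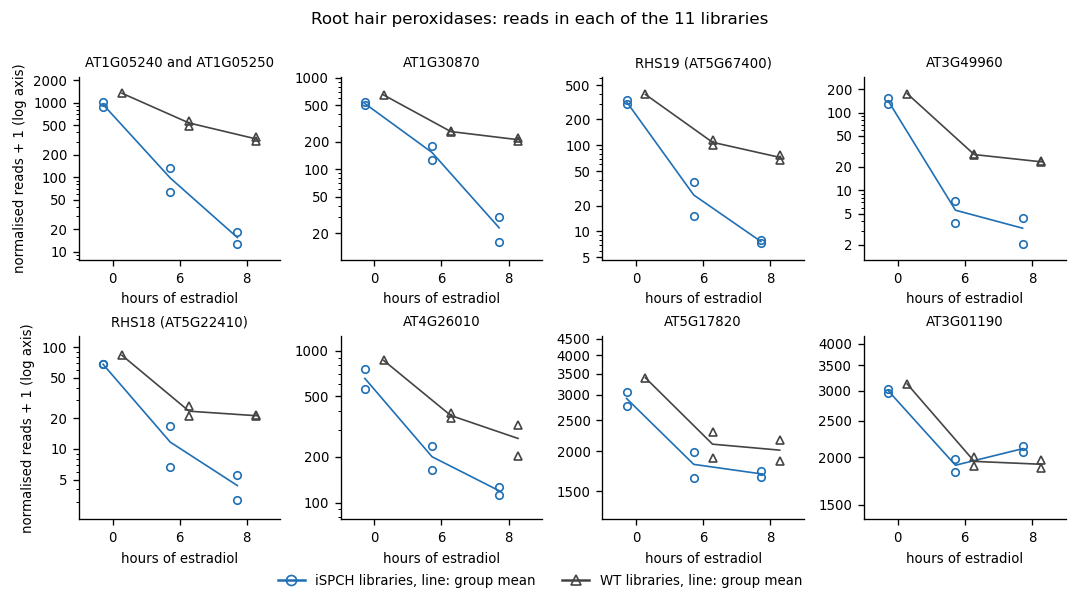
Normalised read counts plus 1 (vertical log axis, a scale for each panel) of the 8 tested root hair peroxidases in each of the 11 libraries by hours of estradiol; circles are iSPCH, triangles WT, and lines join group means. AT1G05240 with AT1G05250 reaches 11.7 and 17.3 in iSPCH at 8 h, against 301 and 349 in WT, while AT3G01190 shows no such gap.

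In all 8 tested root hair peroxidases both iSPCH libraries were already below the single WT library at 0 h, by log2 fold changes of -0.51 to -0.06, none of them called. So were 28 of the 49 observations of the family, and 36.5% of all genes tested. The 0 to 8 h change in iSPCH minus that in WT takes this start into account. Over the family 2 such differences were higher and 4 lower (12.2%, against 3.26% of all genes, with 1.78% higher and 1.48% lower), and the 4 were root hair members. AT1G05240 had -3.91 ± 0.51 (adjusted p = 0.00815), AT1G30870 -2.96 ± 0.39 (adjusted p = 0.00267) and RHS19 -2.96 ± 0.52 (adjusted p = 0.00852). AT3G49960 had -2.61 ± 0.64 (adjusted p = 0.0382), a call lost in 10 of 19 alternatives. The count of 6 became 3 without iSPCH 8 h A, and the RHS19 call was then lost (adjusted p = 0.0539). All these differences rest on the 1 untreated WT library, whose spread was taken to be that of the other groups.

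Markers of root hair cells moved with these members. Of 6 listed markers 5 were lower at 8 h, and the summed level of the 6 was 79.6 and 88.8 in iSPCH, against 499 and 597 in WT. EXPA7 (AT1G12560), an expansin of root hairs, had -3.60 ± 0.32, and RHD6, a regulator of hair initiation, had -0.31 ± 0.25 (adjusted p = 0.523). Of the regulators known to act on peroxidase genes, RSL4 and RSL2, which drive hair growth, were lower at 8 h, at -1.29 ± 0.25 and -1.17 ± 0.29, and UPB1, a repressor of peroxidase genes in the root, was higher by 0.76 ± 0.21 (adjusted p = 0.0286). RSL4 and RHD6 are in both the marker and the regulator list, so RSL4 is also counted among the 5 lower markers. With DESeq2 RSL4 was called and RSL2 (adjusted p = 0.0745) and UPB1 (adjusted p = 0.0745) were not, and both were also lost without iSPCH 8 h A or without WT 8 h A. The part of these markers and regulators in the peroxidase difference was not tested. Of 4 root transporter genes 0 were called at 8 h with limma (1 at an unadjusted p under 0.05, and 1 with edgeR and 1 with DESeq2), with summed levels of 2239 and 1996 in iSPCH, against 2730 and 2696 in WT. Within this list IRT1 had 381 and 211 in iSPCH at 8 h, against 912 and 839 in WT. NRT2.1, with few reads, also lay below WT, AKT1 overlapped between lines and PIN2 lay slightly above WT. Markers of the root meristem and cap summed to 66.9 and 88.8 in iSPCH, against 89.9 and 69.1 in WT, with 0 of 3 called by limma, edgeR or DESeq2 and 0 at an unadjusted p under 0.05.

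Over the 11 libraries the genes most like AT1G30870 by Pearson correlation of log2 values were AT2G47540 (0.99), EXPA7 (0.99), RHS8 (0.99), EXPA18 (0.99) and AT3G09925 (0.99). Among members AT1G05240 was nearest (0.97), then RHS18 (0.95), RHS19 (0.94), AT3G32980 (0.94) and AT2G38380 (0.93). AT3G32980 and AT2G38380 are in no role list, so the course is not particular to root hair members. The libraries share lines and hours, so these values only describe a common course.

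Defence and oxidative burst peroxidases stood higher in iSPCH at 8 h, with 5 of 6 tested members called and a median of 1.13, beside -0.03 over all genes. Both the count and the median include AT1G14550, which was tested only because of its reads in iSPCH at 8 h. Without iSPCH 8 h A or without WT 8 h A 2 of the 6 were called. At 6 h AT5G39580 was called higher. The other 5 were not called and had group means below those of WT, with a list median of -0.20. PER4 (AT1G14540; chromosome 1, 4974021 to 4975705), which bacterial flagellin is known to induce, had 117 and 136 at 0 h, 299 and 255 at 6 h and 1553 and 1094 at 8 h in iSPCH, against 130.2 at 0 h, 356 and 429.7 at 6 h and 279 and 368 at 8 h in WT. Its iSPCH libraries lay below those of WT at 6 h and above them at 8 h. The difference was -0.50 ± 0.18 after 6 h (adjusted p = 0.163) and 2.02 ± 0.18 after 8 h (adjusted p = 2.62e-05), that is 4.05-fold higher. Between 6 h and 8 h its line difference rose by 2.52 ± 0.26 (adjusted p = 8.35e-04), and over 0 to 8 h iSPCH gained 2.06 ± 0.29 more than WT (adjusted p = 0.00267). These 3 calls held in all alternatives that gave a value, 21, 21 and 20 of them.

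AT1G14550, the tandem neighbour of PER4 with 73.6% coding identity, had 9.54 and 20.4 at 0 h, 5.52 and 0 at 6 h and 112 and 31.2 at 8 h in iSPCH, against 7.70 at 0 h, 9.48 and 13.1 at 6 h and 4.36 and 6.80 at 8 h in WT. It too lay below WT at 6 h and above it at 8 h. Its difference of 3.22 ± 0.82 at 8 h (adjusted p = 0.0278) is on few reads, with iSPCH 8 h A 3.58 times B. The call was lost without WT 8 h A or WT 8 h B. The gene reached 1 CPM in the iSPCH 8 h libraries alone, so the group where it is high brought it into the tests. It was not among the genes tested without either iSPCH 8 h library.

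PRX71 (chromosome 5, 25659257 to 25661007), a peroxidase known to strengthen walls under stress, had 2038 and 2403 at 0 h, 7600 and 5790 at 6 h and 17570 and 12410 at 8 h in iSPCH, against 2204 at 0 h, 6990 and 8423 at 6 h and 5327 and 8028 at 8 h in WT. The groups overlapped at 6 h and lay apart at 8 h, with a fold change of 1.18 ± 0.26 (adjusted p = 0.0327). That call was lost in 5 of 21 alternatives. They were without iSPCH 8 h A (adjusted p = 0.117), WT 8 h A (adjusted p = 0.0883), iSPCH 6 h A (adjusted p = 0.0510) or iSPCH 6 h B (adjusted p = 0.0513) and with only the compared groups (adjusted p = 0.0730), and the fold change over the alternatives was 0.88 to 1.47. Per kb of coding sequence PRX71 was the most abundant peroxidase in iSPCH at 8 h, with a group mean of 15190, and the 5th in WT, with 6766.

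AT5G39580 was the one member higher at both hours. It had 575 and 775 at 0 h, 1704 and 1448 at 6 h and 2797 and 2417 at 8 h in iSPCH, against 727 at 0 h, 1074 and 919 at 6 h and 1131 and 1321 at 8 h in WT. The lines overlapped at 0 h and lay apart at 6 h and 8 h. Differences were 0.66 ± 0.15 at 6 h (adjusted p = 0.0294), lost without any one of the 4 libraries compared, and 1.09 ± 0.15 at 8 h (adjusted p = 7.47e-04), kept in 21 of 21 alternatives. The 0 to 8 h change was larger in iSPCH by 1.21 ± 0.23 (adjusted p = 0.0180), a call lost without iSPCH 8 h A (adjusted p = 0.0634) or WT 8 h A (adjusted p = 0.0711).

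PRX34 (AT3G49120) and PRX33 (AT3G49110), neighbours with 90.7% coding identity, make the hydrogen peroxide of the apoplastic burst, and may share some reads. PRX34 had 2317 and 2593 at 0 h, 5305 and 4746 at 6 h and 7580 and 6417 at 8 h in iSPCH, against 2620 at 0 h, 5536 and 5649 at 6 h and 4709 and 5579 at 8 h in WT. PRX33 had 239.5 and 263 at 0 h, 490.0 and 483 at 6 h and 710.3 and 551 at 8 h in iSPCH, against 279 at 0 h, 536 and 569 at 6 h and 445 and 586 at 8 h in WT. In both genes the iSPCH libraries lay below those of WT at 6 h. At 8 h the iSPCH libraries lay above those of WT for PRX34, and the lines overlapped for PRX33. At 8 h PRX34 was higher by 0.44 ± 0.11 (adjusted p = 0.0127) and PRX33 stood at 0.29 ± 0.14 (adjusted p = 0.213), and whether the pair differ was not tested. The PRX34 call was lost without iSPCH 8 h A (adjusted p = 0.145) or WT 8 h A (adjusted p = 0.135). AT5G06720, the last of the list, had 1 to 16 reads a library and was not tested.

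**Figure D3:**
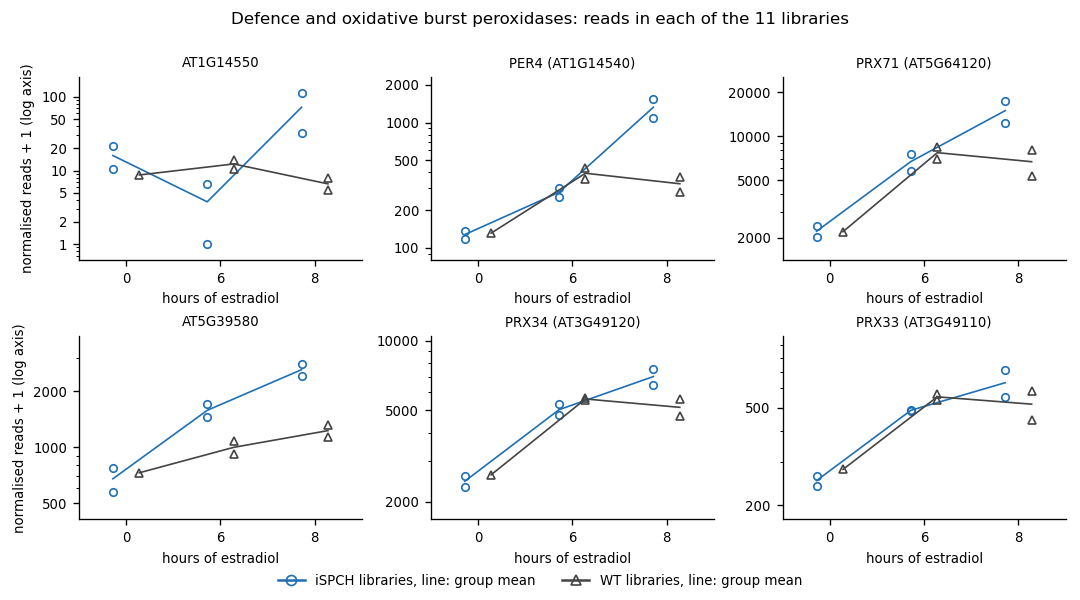
Normalised read counts plus 1 (vertical log axis, a scale for each panel) of the 6 tested defence and oxidative burst peroxidases in each of the 11 libraries by hours of estradiol; circles are iSPCH, triangles WT, and lines join group means. PER4 reaches 1553 and 1094 in iSPCH at 8 h, against 279 and 368 in WT, after lying below WT at 6 h.

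The make-up of the family's reads differed between lines at 8 h, with no test made. The defence list held 34.4% and 31.2% of the family's summed reads in iSPCH at 8 h, against 17.0% and 19.7% in WT. Much of this is PRX71, whose 8 h call was not kept in every alternative. It had 17570 and 12410 of the list's 30330 and 22930 in iSPCH at 8 h. In WT it had 5327 and 8028 of 11900 and 15900. At 0 h the defence list held 7.68% and 8.58% in iSPCH, against 7.87% in WT. The root hair list held 4.59% and 5.32% in iSPCH at 8 h, against 6.48% and 6.38% in WT.

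Genes of the defence and wound response outside the family were also higher at 8 h, 4 of 7 being called, with a summed level of 2083 and 1570 in iSPCH, against 979 and 857 in WT. CYP81F2, an enzyme of indole glucosinolates, had 2.62 ± 0.22, the receptor kinase FRK1 1.93 ± 0.32, MYB51 0.64 ± 0.17 and WRKY33 0.50 ± 0.13. WRKY33 was lost without iSPCH 8 h A or WT 8 h B, and MYB51 without iSPCH 8 h A, WT 8 h A or WT 8 h B and with DESeq2 (adjusted p = 0.0569). Their part in the peroxidase difference was not tested. Among the NADPH oxidases, which supply superoxide at the membrane, RBOHA (AT5G07390) alone of 8 tested was higher. At 8 h it had 90.3 and 92.3 in iSPCH, against 29.7 and 35.1 in WT, a difference of 1.47 ± 0.23 (adjusted p = 5.63e-04). RBOHD, the main oxidase of the defence burst, had 0.22 ± 0.15 (adjusted p = 0.440).

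**Figure D4:**
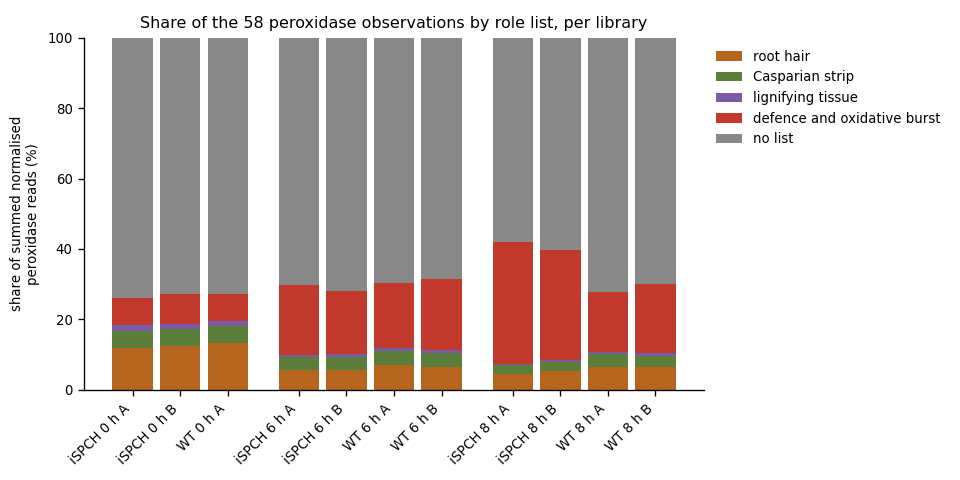
Share of the summed normalised peroxidase reads (vertical axis, percent) held by each role list in each library, iSPCH before WT at each hour. The defence list takes 34.4% and 31.2% in iSPCH at 8 h, against 17.0% and 19.7% in WT.

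Peroxidases of the Casparian strip, the lignin band that seals the root endodermis, were slightly lower in iSPCH at 8 h, 4 of 5 being called with a median of -0.47. PER64 (AT5G42180), which helps to polymerise the strip's lignin, had 479 and 514 at 0 h, 442 and 464 at 6 h and 318 and 286 at 8 h in iSPCH, against 505 at 0 h, 611 and 542 at 6 h and 478 and 383 at 8 h in WT, a difference of -0.50 ± 0.11 at 8 h (adjusted p = 0.00888). PRX72, a lignin peroxidase, had 1018 and 1025 at 0 h, 741 and 611 at 6 h and 555 and 452 at 8 h in iSPCH, against 989.7 at 0 h, 857 and 810.0 at 6 h and 744 and 648 at 8 h in WT, a difference of -0.47 ± 0.11 (adjusted p = 0.0151). Both were lower by less than 2-fold at 8 h, with no overlap between lines.

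AT1G44970 had 94.5 and 85.6 at 0 h, 100.1 and 70.0 at 6 h and 49.9 and 63.5 at 8 h in iSPCH, against 98.6 at 0 h, 96.7 and 106 at 6 h and 89.9 and 124 at 8 h in WT, a difference of -0.89 ± 0.21 (adjusted p = 0.0127) that was lost without iSPCH 8 h A (adjusted p = 0.112) or WT 8 h B (adjusted p = 0.161). RCI3 (AT1G05260), a cold-inducible peroxidase and the tandem neighbour of AT1G05250 with 61.7% identity, had 1542 and 1675 at 0 h, 1310 and 1308 at 6 h and 978 and 938 at 8 h in iSPCH, against 1782 at 0 h, 1233 and 1318 at 6 h and 1151 and 1160 at 8 h in WT. Its difference of -0.27 ± 0.08 (adjusted p = 0.0351) was lost in 10 of 21 alternatives. Neither gene overlapped between lines at 8 h. AT4G11290 had -0.46 ± 0.17 (adjusted p = 0.122). With either iSPCH 8 h B or WT 8 h A left out, 1 of the 5 was called, and with WT 8 h B left out, 2. Endodermis markers moved with the list, with 4 of 6 lower (3 with DESeq2) and a sum of 2170 and 1967 in iSPCH, against 3188 and 2905 in WT, and the part of this in the list's difference was not tested. ESB1, which places the strip's lignin, had -0.78 ± 0.14, and the endodermal regulator SCR -0.11 ± 0.09 (adjusted p = 0.488).

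In the list of lignifying tissue 1 of 4 members was called lower at 8 h and 0 higher. The median over the 4 was 0.47, with values from -0.70 to 0.97. AT5G51890, a peroxidase of xylem vessels, had 804 and 743 at 0 h, 391 and 314 at 6 h and 244 and 222 at 8 h in iSPCH, against 730.1 at 0 h, 515 and 507 at 6 h and 316 and 456 at 8 h in WT, a difference of -0.70 ± 0.15 at 8 h (adjusted p = 0.00989), with the lines apart at 6 h and 8 h. The call was lost without iSPCH 8 h B (adjusted p = 0.0815) or WT 8 h B (adjusted p = 0.0871). At 8 h PRX25 (AT2G41480) had 17.0 and 16.2 in iSPCH, against 6.98 and 10.2 in WT, a difference that did not pass (0.89 ± 0.35, adjusted p = 0.131). PRX52 (AT5G05340) and AT2G22420, also of this list, were not called at 8 h. Of the genes that make lignin's building blocks or polymerise them as laccases, 4 of 16 were lower at 8 h. These were the laccase LAC4 (-0.61 ± 0.10), PAL2 (-0.42 ± 0.10), FAH1 (-0.80 ± 0.21) and COMT1 (-0.44 ± 0.12). Of 3 xylem markers tested IRX3, a cellulose synthase of vessels, was lower at -0.42 ± 0.10 with limma but was not called with DESeq2 (adjusted p = 0.0628). IRX3 was also lost without iSPCH 8 h B, WT 8 h A or WT 8 h B, FAH1 and COMT1 without each of iSPCH 8 h B, WT 8 h A and WT 8 h B, FAH1 without iSPCH 8 h A too, and PAL2 without iSPCH 8 h B or WT 8 h B.

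The remaining 33 loci have no role in the lists, and 26 of them were tested. At 8 h 2 were higher and 5 lower, all by less than 2-fold. AT2G38380 had 3120 and 2694 at 0 h, 2456 and 2133 at 6 h and 1650 and 1299 at 8 h in iSPCH, against 3420 at 0 h, 2686 and 2787 at 6 h and 2454 and 2460 at 8 h in WT, a difference of -0.75 ± 0.11 (adjusted p = 5.66e-04). AT3G32980, among the 6 most abundant peroxidases per kb in every group, had 9086 and 7720 at 0 h, 7232 and 6597 at 6 h and 5429 and 4962 at 8 h in iSPCH, against 8663 at 0 h, 6939 and 7472 at 6 h and 7266 and 7310 at 8 h in WT, a difference of -0.49 ± 0.09 (adjusted p = 0.00310). In both genes all iSPCH libraries at 8 h were below those of WT, and their calls held in 21 of 21 alternatives.

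AT2G37130 lay above WT at 6 h and below it at 8 h. It had 7165 and 8306 at 0 h, 10750 and 11420 at 6 h and 7736 and 6603 at 8 h in iSPCH, against 7040 at 0 h, 9475 and 9471 at 6 h and 8878 and 10020 at 8 h in WT. The difference was 0.23 ± 0.10 after 6 h (adjusted p = 0.249) and -0.40 ± 0.10 after 8 h (adjusted p = 0.0178), and the change of -0.63 ± 0.14 between them passed (adjusted p = 0.0468) but was lost in 13 of 21 alternatives. The 8 h call was lost with library size alone (adjusted p = 0.0808), without iSPCH 8 h B (adjusted p = 0.205) and without WT 8 h B (adjusted p = 0.17). Over the family 1 change of the line difference between 6 h and 8 h was higher and 2 were lower (6.1%, against 1.12% of all genes, with 0.890% higher and 0.229% lower). They are PER4, AT1G30870 and AT2G37130, and leaving out iSPCH 6 h A gave 6 calls and iSPCH 6 h B 5.

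AT4G30170 had 1968 and 2182 at 0 h, 2698 and 2523 at 6 h and 1942 and 1959 at 8 h in iSPCH, against 2469 at 0 h, 2904 and 2866 at 6 h and 2406 and 2614 at 8 h in WT, a difference of -0.36 ± 0.08 (adjusted p = 0.00894). AT5G15180 had 301 and 328 at 0 h, 203 and 262 at 6 h and 139 and 172 at 8 h in iSPCH, against 304 at 0 h, 264 and 282 at 6 h and 214 and 236 at 8 h in WT, a difference of -0.54 ± 0.14 (adjusted p = 0.0233). These 2 were lower, with no overlap at 8 h. The other 2 were higher: AT3G28200 had 986 and 1048 at 0 h, 659 and 647 at 6 h and 772 and 742 at 8 h in iSPCH, against 1047 at 0 h, 619.8 and 588 at 6 h and 556 and 630.1 at 8 h in WT, a difference of 0.35 ± 0.09 (adjusted p = 0.0146). AT4G37520 had 678 and 790.4 at 0 h, 2156 and 2148 at 6 h and 2771 and 2534 at 8 h in iSPCH, against 619 at 0 h, 2167 and 2164 at 6 h and 2046 and 2076 at 8 h in WT, a difference of 0.36 ± 0.08 (adjusted p = 0.0119). Each of these 4 calls was lost without at least 1 of the iSPCH or WT libraries at 8 h. PRXR1 (AT4G21960), the most abundant member in both lines at 0 h with 15210 per kb in iSPCH and 16610 per kb in WT, had 15030 and 15160 at 0 h, 11480 and 10120 at 6 h and 9268 and 8090 at 8 h in iSPCH, against 16490 at 0 h, 10560 and 10960 at 6 h and 9793 and 11270 at 8 h in WT. At 8 h it stood at -0.28 ± 0.10 (adjusted p = 0.0861).

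Within each line the family changed strongly with time, as most genes did. In iSPCH 11 observations were higher and 26 lower at 8 h than at 0 h (75.5%, against 68.3% of all genes, with 34.8% higher and 33.5% lower), and in WT 10 were higher and 23 lower (67.3%, against 61.1%, with 31.2% higher and 29.9% lower). At 6 h the counts were 13 higher and 24 lower in iSPCH (75.5%, against 65.1%, with 33.2% higher and 31.9% lower) and 9 higher and 18 lower in WT (55.1%, against 57.2%, with 29.3% higher and 27.9% lower). All 8 tested root hair members were lower at 8 h than at 0 h in both lines, with medians of -4.30 in iSPCH and -1.86 in WT. These contrasts hold the effects of estradiol, of handling and of elapsed time, which cannot be told apart.

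The 8 lower members with the largest change in iSPCH over 8 h were AT1G05240 (-5.95 ± 0.32), AT3G49960 (-5.53 ± 0.41), RHS19 (-5.39 ± 0.33), AT1G30870 (-4.58 ± 0.25), RHS18 (-4.02 ± 0.43), AT2G34060 (-2.77 ± 0.25), AT4G26010 (-2.45 ± 0.25) and AT5G51890 (-1.73 ± 0.15). In WT the same genes had -2.04 ± 0.40, -2.91 ± 0.50, -2.43 ± 0.40, -1.62 ± 0.30, -1.97 ± 0.53, -2.51 ± 0.31, -1.75 ± 0.31 and -0.94 ± 0.19, in that order. AT2G34060 had 242 and 242 at 0 h, 47.3 and 23.8 at 6 h and 37.2 and 32.3 at 8 h in iSPCH, against 253 at 0 h, 51.2 and 47.3 at 6 h and 41.9 and 45.3 at 8 h in WT, so it was lower at 8 h than at 0 h in both lines, and its line difference at 8 h was -0.32 ± 0.25 (adjusted p = 0.50). PRX25, a lignification peroxidase, had -2.67 ± 0.43 in WT, the largest lower change there after AT3G49960, and -1.63 ± 0.35 in iSPCH.

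The 8 higher members with the largest change in iSPCH were PER4 (3.36 ± 0.18), AT1G49570 (3.12 ± 0.50), PRX71 (2.74 ± 0.26), AT1G14550 (2.0 ± 0.82), AT5G39580 (1.96 ± 0.15), AT4G37520 (1.85 ± 0.08), PRX34 (1.51 ± 0.11) and PRX33 (1.32 ± 0.14). In WT the same genes had 1.29 ± 0.22, 2.65 ± 0.61, 1.57 ± 0.32, -0.43 ± 1.01, 0.75 ± 0.18, 1.73 ± 0.10, 0.97 ± 0.13 and 0.87 ± 0.17, in that order. All but AT1G14550 (adjusted p = 0.735) were called higher in WT too. AT1G49570 had only 1 and 4 reads at 0 h in iSPCH and 6 in WT, so the size of its change rests on few reads. For AT4G37520 the change in iSPCH minus that in WT was 0.12 ± 0.13 (adjusted p = 0.713) and for AT1G49570 0.47 ± 0.78 (adjusted p = 0.824), neither called, whereas PER4 and AT5G39580 passed that test.

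**Figure D5:**
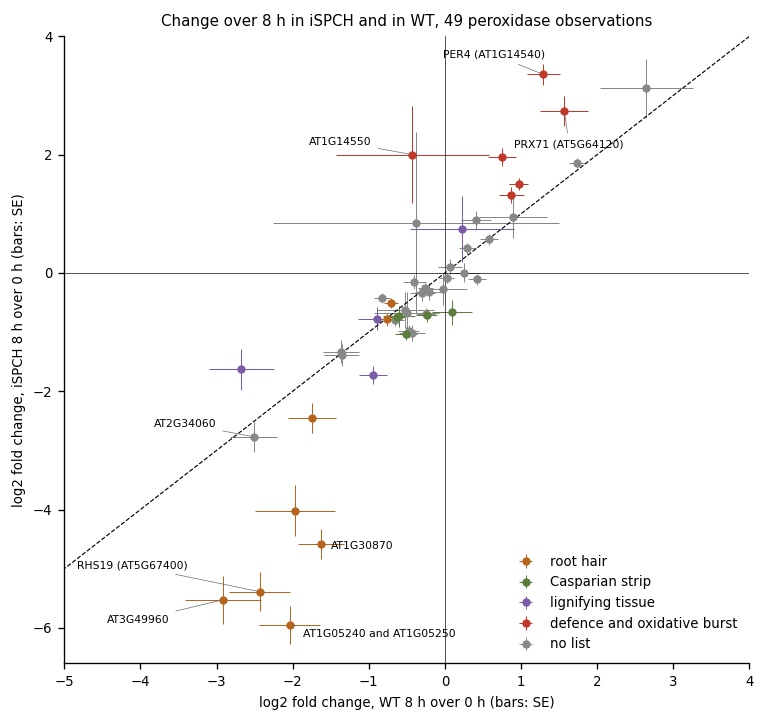
Log2 fold change of 8 h over 0 h in iSPCH (vertical axis) against that in WT (horizontal axis) for the 49 peroxidase observations, with bars of SE and colours for the role lists; the dashed line marks equal change. Most root hair members, such as AT1G05240 (-5.95 in iSPCH, -2.04 in WT), lie below the line, but AT3G01190 lies slightly above it. Defence members such as PER4 (3.36 in iSPCH, 1.29 in WT) lie above the line.

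Of the 16 observations lower in iSPCH than in WT at 8 h, 11 were also lower at 8 h than at 0 h within WT, 1 was higher and 4 were not called. Of the 7 higher ones 5 were also higher within WT, 1 (AT3G28200) was lower and 1 (AT1G14550) was not called. The line comparison and the WT comparison share the WT 8 h libraries, so these counts are a description only. From 6 h to 8 h 6 observations were higher and 14 lower in iSPCH (40.8%, against 7.56% of all genes, with 3.98% higher and 3.58% lower), while in WT 0 were called with limma, edgeR or DESeq2 (8 at an unadjusted p under 0.05, and 0.412% of all genes with limma, 0.208% higher and 0.203% lower). The higher ones in iSPCH were 5 of the defence list and AT4G37520. The 5 again include AT1G14550, tested only because of its reads in iSPCH at 8 h. The 20 calls became 13 with iSPCH 6 h A left out, 10 with iSPCH 8 h A and 11 with iSPCH 8 h B. Of root hair members AT1G30870 (-2.79 ± 0.25), AT1G05240 (-2.59 ± 0.32) and RHS19 (-1.64 ± 0.33) were lower.

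Tandem neighbours had these differences at 8 h. AT2G38380 was lower at 8 h between lines, and AT2G38390, with 90.6% coding identity, stood at -0.29 ± 0.15 (adjusted p = 0.262). In the cluster on chromosome 5, PRX71 was higher, AT5G64110 stood at -0.13 ± 0.37 (adjusted p = 0.893) and AT5G64100 at 0.26 ± 0.16 (adjusted p = 0.394). AT5G64100 is the second most abundant member per kb in iSPCH at 8 h, with 11890 beside 9943 in WT. AT4G37530 stood at 0.21 ± 0.09 (adjusted p = 0.189) beside the called AT4G37520. No test of these differences between neighbours was made.

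In all, 9 observations were too low to be tested, with at most 37 reads in any library. Of the 14 loci that complete the family 4 were tested, and 0 were called between lines at 8 h with limma, edgeR or DESeq2 (0 at an unadjusted p under 0.05). Ascorbate peroxidases and catalases are families of intracellular enzymes, most of which also remove hydrogen peroxide. Of 9 tested genes listed under these names, 1 was lower at 8 h with limma and 3 were called with DESeq2. The 1 was APX4 (-0.50 ± 0.09), which is counted here by its name and not by a shown activity. CAT2, a catalase of photosynthetic tissue, was not tested because its reads could not be resolved, and the authors' group means at 8 h were 15980 in iSPCH and 27260 in WT.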

How the data were processed

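Poly-A RNA of whole seedlings was sequenced. CASAVA 1.8, TopHat, DESeq and TAIR10 appear in the submitters' processing notes with no role given. The counting tool, its gene set and the use of strand are not given in the labels. The deposited signal values are, per the file headers, means of 6 groups, for 33602 genes, and the values themselves show whole reads divided by a size factor per library. Each mean was resolved into whole reads of its libraries, with 1 solution for 33491 genes including all 59 members, and the other 111 genes, with 31.3% of reads, were not tested. The order of libraries in a pair is arbitrary, and 0 columns of per-sample values were left unused.

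Resolved reads over size factors, plus 1, entered limma 3.58.1 on the log2 scale (limma-trend, robust, 1 coefficient per group, all 11 libraries) in R 4.3.3. The test covered 19667 genes that reached 1 CPM in 2 or more libraries, with Benjamini-Hochberg adjustment at FDR 0.05 in each of 11 comparisons. Over all genes the 8 h line difference had a median SE of 0.123. edgeR 4.0.16 and DESeq2 1.42.0 on the resolved reads were alternatives (at 8 h edgeR called 977 genes higher and 1114 lower in iSPCH), and both the resolving and the fit were tested on simulated data. Positions, names and windows come from TAIR10.1, whose gene models may differ from the authors'. Copies were sought with BLAST+ 2.17.0. The members and all lists were chosen with earlier results of these data known. Values in every library are given for members called between lines or in a difference between contrasts, for the most abundant member of each list, and for PRXR1, AT2G34060 and PRX33, the last 2 named after their values were seen.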

Additional observations from a re-analysis of the deposited data

Results flagged for a closer look

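The 0 to 8 h change differed between iSPCH and WT, by the test of the difference itself, for AT1G05240 (-3.91), AT1G30870 (-2.96), RHS19 (AT5G67400, -2.96) and AT3G49960 (-2.61), which fell further in iSPCH, and for PER4 (AT1G14540, 2.06) and AT5G39580 (1.21), which gained more there. The line difference itself changed between 6 h and 8 h for PER4 (AT1G14540, 2.52), AT1G30870 (-2.49) and AT2G37130 (-0.63). All are log2 values, iSPCH minus WT or 8 h minus 6 h. Not all of these calls are equally firm. The 0 to 8 h call was lost in 10 of 19 alternatives for AT3G49960, 2 of 20 for AT5G39580 and 1 of 20 for RHS19. The change between 6 h and 8 h was lost in 13 of 21 for AT2G37130. All the 0 to 8 h differences rest on the single untreated WT library.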

How the results depend on the processing

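No member called between lines or in a difference between contrasts changed the sign of its fold change in any alternative that gave a value, but the defence list at 6 h, with 1 higher and 0 lower, had 0 higher and 1 lower without iSPCH 6 h A. The 4 calls between lines at 6 h became 7 with DESeq2, 7 with only the compared groups, and 2 (without WT 6 h B) to 10 (without iSPCH 6 h A) with 1 library left out. The 23 calls at 8 h were 14 to 23, with 14 without each of the 4 libraries compared. For WT 8 h against 6 h, 0 calls became 1 with only the compared groups and 0 to 1 with 1 library left out (1 without WT 8 h B). For iSPCH 8 h against 6 h, 20 became 13 with only the compared groups and 10 to 20 with 1 left out (13 without iSPCH 6 h A, 10 without iSPCH 8 h A, 11 without iSPCH 8 h B). The 6 differences in 0 to 8 h change were 3 (without iSPCH 8 h A) to 7, and the 3 changes of the line difference became 5 with library size alone, 6 with DESeq2, 5 without robust variance and 2 to 6 with 1 left out (6 without iSPCH 6 h A, 5 without iSPCH 6 h B). The cause was not tested, but a group with 1 library left is assumed to vary like the others. Library size alone moved the median gene at 8 h between lines to 0.09, against -0.03, and gave 1731 higher and 649 lower genes in place of 935 and 1176. No paired analysis was possible because the resolved libraries carry no replicate number. With few reads in iSPCH at 8 h, AT3G49960 ranged from -3.50 to -1.93 and RHS18 from -2.77 to -1.61 at 8 h over the alternatives.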

Other observations

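Some members varied more within a pair of libraries than between lines. AT4G36430 had 21.9 and 22.4 at 0 h, 83.5 and 12.6 at 6 h and 107 and 15 at 8 h in iSPCH, against 37.0 at 0 h, 20.9 and 171 at 6 h and 17.5 and 45.3 at 8 h in WT, and PRX52 (AT5G05340), a peroxidase of lignification, had 30.5 and 29.2 at 0 h, 47.3 and 18.2 at 6 h and 65.8 and 39.2 at 8 h in iSPCH, against 21.6 at 0 h, 24.6 and 53.3 at 6 h and 15.7 and 40.8 at 8 h in WT. AT2G18150, which has 81.8% coding identity with AT4G36430 and was too low to test, had 33.2 in WT 6 h B and 0.948 in WT 6 h A, where AT4G36430 had 171 and 20.9. Among the 47 tested members with at least 20 reads in the higher library of iSPCH at 6 h, 6 differed by more than 2-fold within the pair, all with library A higher, among them AT1G05240, RHS18 and RHS19, and B is the shallowest library. The median ratio within the pair over the 47 was 1.18.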
